A study of Rattus norvegicus with 10 samples.

Results

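Secreted antimicrobial proteins and epithelial oxidases form a chemical barrier between the colon wall and its bacteria, and 10 of their genes were followed here in the distal colon of rats fed a bile acid. The 10 genes, chosen by symbol from the 23422 in the count table, were Pla2g2a, Lypd8, Lyz2, Slpi, Pigr, Lbp, Nox1, Noxo1, Duox2 and Duoxa2. Of these, 1 rose on cholate (Pla2g2a), 1 fell (Lbp) and the other 8 did not pass the test.

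The animals were male Wistar Munich rats of 284 to 347 g, kept singly in metabolic cages, where they had 3 days to settle in. Control rats stayed on standard rodent chow, and cholate rats received the same chow with sodium cholate, a salt of a primary bile acid, mixed in at 1% w/w until both groups were killed after 10 days. Of 12 rats, 6 per diet, RNA came from the 5 per diet with the highest RNA concentration, which was not a random choice: controls 1, 2, 5, 6 and 9 and cholate rats 3, 4, 7, 8 and 11. Everted sacs of the last part of the colon were held in calcium-free buffer with EDTA at 37°C for 20 minutes and shaken, so the samples are detached epithelial cells with whatever other cells came off with them.

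Cholate rats 11 and 4 had the lowest and highest total counts, 14337356 and 45285762. The largest axis of variation, with 46.8% of the variance, did not follow diet: it set control rats 5 and 9 and cholate rats 8 and 11 apart from the other 6 rats, with control rat 5 closest to the middle, and diet followed on the next axis with 30.6%. Values within these sets of libraries are given below for the named genes whose call or sign differed between them; no difference between the sets was tested. Colonocyte markers, 19 genes, summed to between 11850 and 15330 CPM (read counts scaled to a common library size) in controls and between 18930 and 26930 CPM on cholate, with no overlap. Of the 19, 4 were called higher (beside 1.1% of all genes tested) and none lower. Their log2 changes from control to cholate ran from -1.29 to 1.74 with a median of 0.53, so single markers went both ways. Goblet cell markers summed to 8289 to 25410 CPM and 7931 to 27590 CPM. Macrophage and dendritic cell markers, mostly Cd14, summed to 235.5 to 311.9 CPM and 249.3 to 314.9 CPM. Granulocyte and mast cell markers, 18 genes, summed to 33.6 to 52.3 CPM and 33.7 to 50.8 CPM, most of it from Kit and S100a9, while 4 of them (Mpo, Elane, Mmp8 and Epx) had no reads. The part these cell types play in the results was not tested, and in bulk RNA fewer cells of a type and less RNA per cell cannot be told apart.

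Colonic epithelium keeps bacteria at a distance with mucus, with secreted proteins that bind or kill them, and with immunoglobulin A carried across the cell by a dedicated receptor. Its surface also makes oxidants. NOX1 makes superoxide with its organizer NOXO1 and activator NOXA1, and DUOX2, which reaches the cell surface with its maturation factor DUOXA2, releases hydrogen peroxide toward the lumen.

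The promoters of Pla2g2a, the member that rose, and Lypd8, the most abundant member and one that did not pass the test, are printed to show what lies before the start of each gene. They are the 250 bases before the annotated start in RefSeq's GRCr8 assembly, 5′ to 3′ on the plus strand, at chr5:156359475-156359724 for Pla2g2a and chr10:43062011-43062260 for Lypd8. Capitals mark motif matches.
Pla2g2a: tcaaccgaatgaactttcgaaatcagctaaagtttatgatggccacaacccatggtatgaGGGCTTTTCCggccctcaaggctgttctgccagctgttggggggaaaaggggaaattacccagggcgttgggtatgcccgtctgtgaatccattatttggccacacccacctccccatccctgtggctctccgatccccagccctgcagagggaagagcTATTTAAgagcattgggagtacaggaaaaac
Lypd8: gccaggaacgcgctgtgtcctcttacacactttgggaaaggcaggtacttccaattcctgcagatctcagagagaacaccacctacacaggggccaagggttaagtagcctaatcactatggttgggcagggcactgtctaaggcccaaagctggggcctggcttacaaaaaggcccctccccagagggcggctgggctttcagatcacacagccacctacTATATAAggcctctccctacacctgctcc

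Promoters of 7 of the 10 members were in the RefSeq table and were searched on both strands, and shares are of 33469 promoters of the same length. In Pla2g2a the TATA-box variant TATTTAA lay 31 to 25 bases before the start. This variant was in 4.16% of promoters, Lyz2's among them, where it lay on the strand opposite to the gene, 28 to 22 bases before the start. An NF-kB motif, written as GGG, any 2 bases and then TTTCC, lay 190 to 181 bases before the start of Pla2g2a. That motif was in 1.3% of promoters and among the members also in Nox1. In Lypd8 the variant TATATAA lay 29 to 23 bases before the start, and 3.42% of promoters held it. The plain TATAAA was in 12.9% of promoters and, of the members searched, only in Duox2. There it lay on the strand opposite to the gene, 163 to 158 bases before the start. No member searched held a STAT motif, written as TTC, any 3 bases and then GAA (7.67% of promoters), or an FXR-type inverted repeat of AGGTCA with 1 base between its arms (0.0269%). A match is a run of letters and not a shown binding site.

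Levels below are CPM after trimmed mean of M-values (TMM) scaling, 1 value per rat and given in order of rat number, and means carry the SD over 5 rats. Each change is given as the log2 of the fold from control to cholate, its SE is an approximate standard error, and adjusted p values come from the edgeR quasi-likelihood test with Benjamini-Hochberg adjustment over 12385 genes. Calls required an adjusted p under 0.01 and a fold over 2. By this rule 2 of the 10 members were called, against 3.21% of all genes tested. The 1 called higher stands beside 1.1% of all genes and the 1 called lower beside 2.12%. At an adjusted p under 0.05 the count of members stayed at 2, against 6.42% of all genes. In the 2 called members the diets did not overlap, as in 13.1% of all genes. The median log2 change was 0.24 over the members and -0.01 over all genes.

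**Figure D1:**
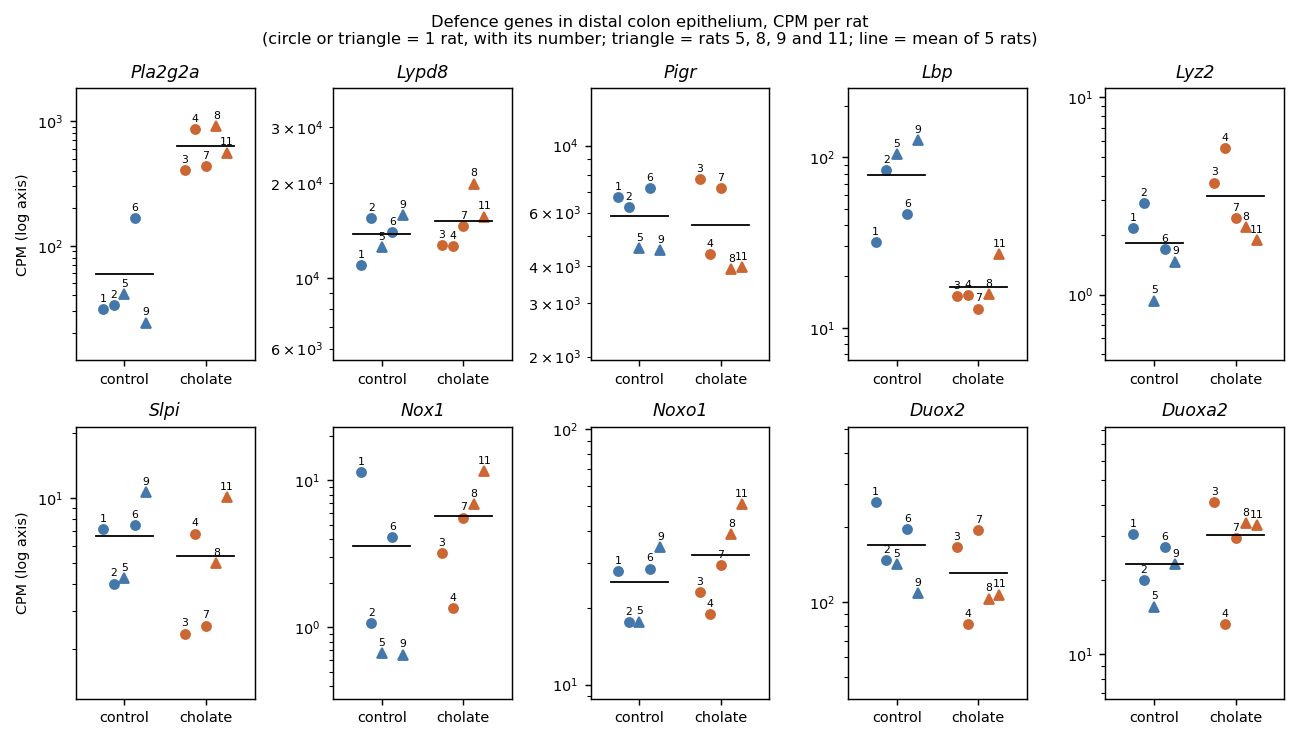
Each panel plots 1 gene in CPM after TMM scaling on a log axis, 1 point per rat, with the rat's number, the mean of each diet as a line, and triangles for rats 5, 8, 9 and 11. The diets separate for Pla2g2a and Lbp, and overlap for the other 8 genes.

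Pla2g2a encodes the secreted group IIA phospholipase A2, which attacks bacterial membranes, Gram-positive ones above all. It lies on chromosome 5 at 157282650 to 157285295 of Rnor_6.0, on the plus strand, with a coding sequence of 441 bases. Pla2g2a was at 31.1, 33.4, 40.7, 166.4 and 24.2 CPM in control rats 1, 2, 5, 6 and 9. On cholate it was at 405.4, 866.2, 433.2, 912.3 and 556.9 CPM in rats 3, 4, 7, 8 and 11. Every cholate rat lay above every control, and control rat 6 stood alone between the other controls and the lowest cholate rat. The mean went from 59.2 ± 60.2 to 634.8 ± 239.7 CPM (SD, n = 5 per diet), and the log2 change was 3.42 (SE 0.57, edgeR adjusted p = 0.00409), a fold of 10.7. Per kilobase of coding sequence its mean level went from 134.1 to 1440 CPM. That took Pla2g2a from rank 1015 to rank 87 among the 12385 genes tested, as for all ranks below. The change was 2.92 in the 6 rats that cluster together (edgeR adjusted p = 0.0457, not called) and 4.46 in rats 5, 8, 9 and 11 (edgeR adjusted p = 0.000233). Without control rat 6 it was 4.29. The call was lost without control rat 1, 2 or 5 or cholate rat 4 (adjusted p 0.0145, 0.0151, 0.0123 and 0.0117), with the change between 3.21 and 4.29 whichever rat was left out.

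Of 11 other genes for secreted phospholipases A2 and their receptor, 6 had enough reads to be tested and none was called. Their median log2 change was -0.16. Pla2g5, the group V enzyme, had the smallest adjusted p of them, and its level was between 0.268 and 0.985 CPM in controls and between 0.835 and 2.96 CPM on cholate (log2 change 1.82, SE 0.46, edgeR adjusted p = 0.0263). Other settings called Pla2g5: DESeq2 (adjusted p 0.0023), limma-voom (0.00367), 1 surrogate variable (0.00385) and the threshold of 0.05; within the sets it was not called, at 2.15 in the 6 rats that cluster together (adjusted p 0.0124) and 0.96 in rats 5, 8, 9 and 11 (0.46). Pla2g10, the most abundant of those looked up after their values were seen, stood at 148.5 ± 25.2 CPM and 140.2 ± 58.5 CPM (adjusted p = 0.874).

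Lypd8 encodes a GPI-anchored LY6/uPAR protein of the colonic surface that is shed into the mucus and binds flagellated bacteria. Its gene is on chromosome 10 at 43817773 to 43828812 of Rnor_6.0, plus strand, with 750 coding bases. Lypd8 was at 11040, 15540, 12550, 13980 and 15890 CPM in control rats 1, 2, 5, 6 and 9. It was at 12760, 12650, 14670, 19930 and 15680 CPM in cholate rats 3, 4, 7, 8 and 11. The diets overlapped, and cholate rat 8 alone lay above every control. The log2 change was 0.13 (95% interval -0.23 to 0.50, edgeR adjusted p = 0.651), so a change of a fold of 2 lies outside its interval in both directions. Per coding kilobase, Lypd8 held rank 6 among the genes tested on both diets, at 18400 and 20180 CPM per kilobase. It also varied the least of the 10 members among controls, with a coefficient of variation of 14.8% against a median of 21.7% over all genes tested.

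Of 20 other LY6 and uPAR domain genes, 10 were tested and 1 was called. Slurp1, a small secreted LY6 protein known from skin and other squamous epithelia, rose from 0.143 ± 0.135 to 5.37 ± 3.26 CPM (log2 change 5.15, SE 0.67, edgeR adjusted p = 0.0014). Its call held in all 10 fits that left out 1 rat. Only 20 Slurp1 reads were counted in controls in all, so the size of its fold is uncertain. The median log2 change of the 10 was -0.76. Ly6e and Ly6g6e, looked up after their values were seen, were at 8.16 ± 1.37 and 12.5 ± 2.93 CPM in controls and 3.63 ± 1.22 and 5.15 ± 1.99 CPM on cholate, without overlap, but missed the threshold (edgeR adjusted p = 0.0147 and 0.0125).

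Lyz2 encodes lysozyme, which cuts bacterial cell wall peptidoglycan and is made by macrophages and, in the small intestine, Paneth cells. It lies on chromosome 7 at 60335968 to 60341264, minus strand, with 447 coding bases. Lyz2 was at 2.17, 2.91, 0.932, 1.7 and 1.47 CPM in control rats 1, 2, 5, 6 and 9. It was at 3.69, 5.54, 2.44, 2.19 and 1.9 CPM in cholate rats 3, 4, 7, 8 and 11. The ranges overlapped, with cholate rats 3 and 4 above all controls. Its log2 change was 0.79 (95% interval -0.04 to 1.62, edgeR adjusted p = 0.195), which reaches past a fold of 2. Of Paneth cell markers, 5 of 13 genes had no reads, and nearly all of the list's sum came from Itln1 and Mptx1. That sum ran from 338.9 to 3008 CPM in controls and from 42 to 738.6 CPM on cholate.

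Slpi encodes the secretory leukocyte protease inhibitor, which blocks neutrophil elastase and is antimicrobial. It lies on chromosome 3 at 160799979 to 160802228, minus strand, with 396 coding bases. Slpi was at 7.15, 4.02, 4.25, 7.47 and 10.6 CPM in control rats 1, 2, 5, 6 and 9. It was at 2.36, 6.84, 2.57, 5.01 and 10.1 CPM in cholate rats 3, 4, 7, 8 and 11. The diets overlapped over most of their range, and the highest rat of each diet, control rat 9 and cholate rat 11, had nearly equal values. The log2 change was -0.33 (95% interval -1.27 to 0.62, edgeR adjusted p = 0.675).

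Among 14 tested genes for serine protease inhibitors and their target proteases, 3 were called higher and none lower, with a median log2 change of 0.0008. Serpinb6, an intracellular serpin, rose from 223.3 ± 34.7 to 650.6 ± 131.1 CPM (log2 change 1.54, SE 0.16, edgeR adjusted p = 0.000606), and its call held in all 10 fits that left out 1 rat. Spink4, a Kazal-type inhibitor secreted by goblet cells, rose from 3.37 ± 3.63 to 90 ± 47.6 CPM (log2 change 4.76, SE 0.79, edgeR adjusted p = 0.00391). Serpina3n, an acute-phase serpin, rose from 9.96 ± 6.77 to 47.9 ± 13.9 CPM (log2 change 2.26, SE 0.42, edgeR adjusted p = 0.00694). Spink4 lost its call without control rat 1, 5 or 6 or cholate rat 4 (adjusted p 0.0111 to 0.0142). Serpina3n lost it without control rat 2, 5 or 6 or cholate rat 3, 4, 7 or 8 (adjusted p 0.0113 to 0.0227). Spink4 was called in the 6 rats that cluster together (6.02, adjusted p 0.00252) and not in rats 5, 8, 9 and 11 (4.02, adjusted p 0.0568). Serpina3n was called in rats 5, 8, 9 and 11 (2.61, adjusted p 0.00524) and not in the other 6 (2.15, adjusted p 0.0141).

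Of 36 genes for secreted antimicrobial proteins and lectins outside the members, 13 were tested. None was called higher and 2 were called lower, beside 2.12% of all genes tested. The median log2 change was -0.65, and single genes ran from -9.03 to 1.06. Both belong to the resistin-like family of secreted proteins. Retnlb, a goblet cell protein that kills Gram-negative bacteria, was at 7.5, 15, 7.94, 19.9 and 143 CPM in control rats 1, 2, 5, 6 and 9, and at 0.222, 0.37, 0.428, 1.81 and 1.52 CPM in cholate rats 3, 4, 7, 8 and 11. Retnla lay between 5.63 and 245.2 CPM in controls and between 0 and 0.835 CPM on cholate, where only 14 reads were counted in all. Retnlb fell by 5.61 on the log2 scale (SE 1.07, edgeR adjusted p = 0.00768) and Retnla fell by 9.03 (SE 1.58, edgeR adjusted p = 0.00519), and control rat 9 was by far the highest rat for both. Without control rat 2 or 6 or cholate rat 3, 4, 7 or 8 neither was called, and Retnlb also lost its call without control rat 1 or cholate rat 11 (adjusted p 0.0102 to 0.0244 for Retnlb and 0.0111 to 0.019 for Retnla). Both were called in the 6 rats that cluster together (adjusted p 0.000203 for Retnlb and 0.000572 for Retnla) and neither in rats 5, 8, 9 and 11 (0.361 and 0.369), with log2 changes of -5.29 and -5.55 for Retnlb and -9.84 and -8.26 for Retnla. Itln1, a lectin that binds microbial sugars, and Zg16 were looked up after their values were seen. Itln1 had 463.5 ± 292.7 CPM in controls and 95.8 ± 45.4 CPM on cholate and missed the threshold (edgeR adjusted p = 0.0196). Zg16 had the highest log2 change of the list, 1.06, and was not called (edgeR adjusted p = 0.214). Its level was 396.1 ± 203.5 CPM in controls and 826.8 ± 646.5 CPM on cholate.

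Pigr encodes the polymeric immunoglobulin receptor, which carries immunoglobulin A through the epithelial cell and is released with it as secretory component. It lies on chromosome 13 at 47564176 to 47592093, plus strand, with 2298 coding bases. Pigr was at 6736, 6273, 4563, 7241 and 4507 CPM in control rats 1, 2, 5, 6 and 9. It was at 7732, 4378, 7228, 3896 and 3957 CPM in cholate rats 3, 4, 7, 8 and 11. The diets overlapped. In both diets the rats of the smaller library set (5, 9, 8 and 11) were low, together with cholate rat 4. The log2 change was -0.11 (95% interval -0.64 to 0.42, edgeR adjusted p = 0.822), and it was -0.04 in the larger and -0.25 in the smaller set. Per coding kilobase Pigr held rank 39 in controls and rank 54 on cholate.

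Of 12 other tested genes of immunoglobulin A transport and plasma cell recruitment, 1 was called. Ccl28, the chemokine by which colonic epithelium attracts plasma cells that make immunoglobulin A, was at 67.2, 88.4, 76, 70.3 and 107 CPM in control rats 1, 2, 5, 6 and 9. It was at 31.4, 31.4, 37.7, 41.1 and 37.5 CPM in cholate rats 3, 4, 7, 8 and 11. The diets did not overlap, and the level fell by 1.19 on the log2 scale (SE 0.16, edgeR adjusted p = 0.00145), a call that held in all 10 fits that left out 1 rat. The list's median log2 change was 0.17.

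Lbp encodes the lipopolysaccharide-binding protein, which takes lipopolysaccharide from Gram-negative bacteria and hands it to CD14, and through it to TLR4. It lies on chromosome 3 at 154786232 to 154812910 of Rnor_6.0, plus strand, with 1446 coding bases. Lbp was at 31.7, 84.1, 104.6, 46.6 and 126.3 CPM in control rats 1, 2, 5, 6 and 9. On cholate it was at 15.3, 15.5, 13, 15.8 and 27.2 CPM in rats 3, 4, 7, 8 and 11. Every cholate rat lay below every control, and cholate rat 11 was close to control rat 1. Its mean was 78.7 ± 39.4 CPM in controls and 17.4 ± 5.61 CPM on cholate, and it fell by 2.18 on the log2 scale (SE 0.37, edgeR adjusted p = 0.0045). The level was 4.54-fold lower, and per coding kilobase Lbp went from rank 2468 to rank 6839. The change was -1.86 in the 6 rats that cluster together and -2.47 in rats 5, 8, 9 and 11, and was called in both (edgeR adjusted p = 0.00724 and 0.000764). The call was lost without control rat 2 or 5 or cholate rat 3, 4 or 7 (adjusted p 0.0149, 0.0114, 0.0122, 0.0157 and 0.0149), with the change between -2.41 and -1.97 whichever rat was left out.

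Cd14 and Tlr4, which act after Lbp in lipopolysaccharide sensing, were looked up after their values were seen and were not called. Cd14 was at 226.6 ± 28.2 CPM in controls and 225.6 ± 26.9 CPM on cholate (adjusted p = 0.98). Tlr4 was at 149.2 ± 50.6 and 151.8 ± 77 CPM (adjusted p = 0.974). Of 23 sensing genes tested, 1 was called: Tlr1, which pairs with TLR2 to detect bacterial lipopeptides, rose from 17.6 ± 4.2 to 37.6 ± 4.48 CPM (log2 change 1.10, SE 0.18, edgeR adjusted p = 0.00374). The call ended without control rat 1, 2 or 6 or cholate rat 4 or 7 (adjusted p 0.0111 to 0.0149). Tlr1 changed by 1.48 in the 6 rats that cluster together (adjusted p 0.000199) and by 0.60 in rats 5, 8, 9 and 11 (adjusted p 0.145, not called). The list's median log2 change was -0.05.

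Other genes of the BPI fold family, to which LBP belongs, were looked up after their values were seen. Bpi, the bactericidal permeability-increasing protein, was at 2.27 ± 0.604 CPM in controls and 1.146 ± 0.839 CPM on cholate (log2 change -1.04, edgeR adjusted p = 0.197). Bpifb6 was at 3.54, 9.27, 5.82, 5.42 and 5.93 CPM in control rats 1, 2, 5, 6 and 9 and between 0.0616 and 0.294 CPM on cholate. Those cholate values came from 2, 3, 11, 3 and 3 reads in rats 3, 4, 7, 8 and 11. Bpifb6 fell by 5.18 on the log2 scale (SE 0.47, edgeR adjusted p = 0.00035), and so few reads leave the size of the fall uncertain.

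Genes of signals known to act on Lbp, Pigr and Duox2 in epithelia were not called. Of 17 genes tested for NF-kB and the acute-phase response none was called, with a median log2 change of -0.08. The smallest adjusted p was that of Il1rn, the interleukin 1 receptor antagonist, at 11.1 ± 2.21 CPM in controls and 20.7 ± 6.93 CPM on cholate (log2 change 0.89, adjusted p = 0.0355). Of 27 genes for interleukin 22, 17 and 10 receptors and their signalling none was called, with a median of -0.05 and a range from -2.43 to 0.72. Stat6, which signals for interleukin 4 and 13, had the smallest adjusted p there, at 123.6 ± 13.8 and 90.5 ± 6.6 CPM (log2 change -0.45, adjusted p = 0.0228).

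**Figure D2:**
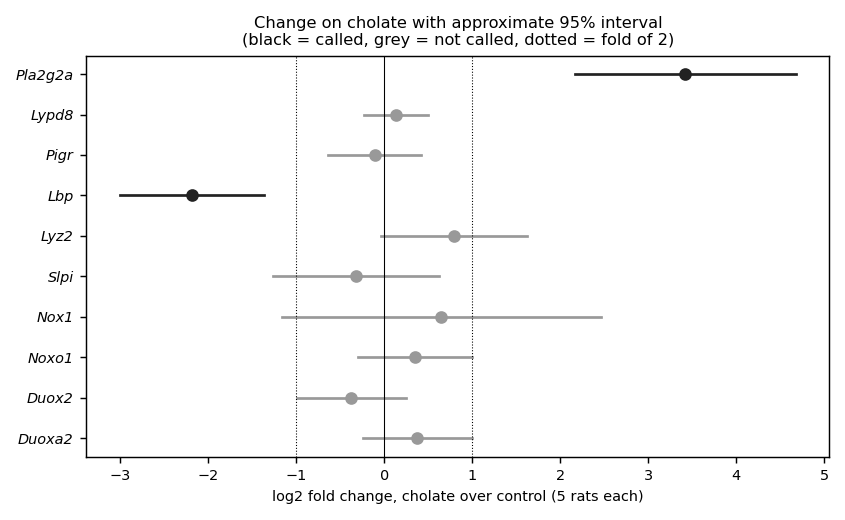
Points show the log2 change on cholate for the 10 members, with approximate 95% intervals over 5 rats per diet, and dotted lines mark a fold of 2 in each direction. Pla2g2a (3.42) and Lbp (-2.18) lie beyond these lines with their whole interval, and Nox1 has the widest interval, from -1.17 to 2.46.

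Of the 8 members not called, 5 had intervals inside a fold of 2 in both directions (Lypd8, Pigr, Noxo1, Duox2 and Duoxa2). The approximate intervals of Noxo1 (upper end 0.992), Duox2 (lower end -0.998) and Duoxa2 (upper end 0.999) ended only just short of a fold of 2. Those of Lyz2, Slpi and Nox1 reached past it, as the plot of changes with their intervals shows.

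The oxidase genes showed no call, and their levels spread between rats. Nox1, the catalytic subunit of the superoxide-making oxidase, lies on chromosome X at 104909328 to 104932508, minus strand, with 1692 coding bases. It overlaps the antisense gene Cstf2 by 419 bases, none of them coding. Nox1 was at 11.4, 1.07, 0.671, 4.1 and 0.653 CPM in control rats 1, 2, 5, 6 and 9. It was at 3.21, 1.35, 5.6, 6.89 and 11.5 CPM in cholate rats 3, 4, 7, 8 and 11. The top control, rat 1, matched the top cholate rat, while 3 controls lay below every cholate rat. Among controls the highest value was 17.5 times the lowest, and the coefficient of variation of 128.7% was the largest of the 10 members. The log2 change was 0.65 (SE 0.82, edgeR adjusted p = 0.663).

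The sign of the Nox1 estimate differed between the 2 sets of rats, but a difference between the sets was not tested. In the 6 rats that cluster together the log2 change was -0.69 (edgeR adjusted p = 0.574). In rats 5, 8, 9 and 11 it was 3.75 and was called (edgeR adjusted p = 0.00115), with 2 rats per diet. The controls there, rats 5 and 9, had only 18 and 12 Nox1 reads. Without control rat 1 the log2 change was 1.77 and was not called, and with limma-voom on all rats it was -0.01.

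Noxo1, the organizer that holds the NOX1 complex active, lies on chromosome 10 at 14062331 to 14066918, plus strand, with 1061 coding bases. Noxo1 was at 27.8, 17.6, 17.6, 28.4 and 34.6 CPM in control rats 1, 2, 5, 6 and 9. It was at 23, 18.9, 29.3, 38.7 and 50.9 CPM in cholate rats 3, 4, 7, 8 and 11. The diets overlapped, and cholate rats 8 and 11 were the highest of all 10. Its log2 change was 0.35 (95% interval -0.30 to 0.99, edgeR adjusted p = 0.484). It was -0.03 in the 6 rats that cluster together and 0.73 in rats 5, 8, 9 and 11, called in neither (edgeR adjusted p = 0.934 and 0.231). Per coding kilobase, Noxo1 stood at 23.8 and 30.3 CPM on the 2 diets, above Nox1 at 2.12 and 3.38 CPM. The ratio of Noxo1 to Nox1 in CPM, not scaled for length and chosen after the values were seen, was 21 ± 20.1 in controls. On cholate it was 7.27 ± 3.86 (exact two-sided permutation p = 0.27 for the difference in mean log2 ratio, n = 5 per diet).

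The other genes of the NOX1 complex were more abundant. Noxa1, the activator, was at 36, 33, 90.1, 30.7 and 141 CPM in control rats 1, 2, 5, 6 and 9. It was at 61.9, 51.8, 43, 158.6 and 123.4 CPM in cholate rats 3, 4, 7, 8 and 11. Rats 5, 9, 8 and 11 had the highest Noxa1 on both diets, so the level followed the library set. Over all rats the log2 change was 0.41 (edgeR adjusted p = 0.659). In the other 6 rats it was 0.68 with an adjusted p of 0.00566, a fold under 2 and therefore not called.

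Cyba, the membrane partner p22phox, was at 238.8 ± 45.7 CPM in controls and 225.3 ± 82.3 CPM on cholate (log2 change -0.08, adjusted p = 0.862). The sign for Cyba turned in 4 of 22 settings, with -0.39 in the 6 rats that cluster together and 0.21 in rats 5, 8, 9 and 11. Rac1, the small GTPase that switches the complex on, was at 168.9, 170.3, 168.7, 184.2 and 180.2 CPM in control rats 1, 2, 5, 6 and 9. It was at 218.4, 246.6, 245.7, 247.8 and 237.5 CPM in cholate rats 3, 4, 7, 8 and 11. The diets did not overlap for Rac1, and its log2 change of 0.46 (SE 0.09) had an edgeR adjusted p of 0.00804, but the fold was under 2. Rac2, a GTPase best known from blood cells, was at 65 ± 18 CPM in controls and 123.5 ± 22.9 CPM on cholate, also without overlap (log2 change 0.93, edgeR adjusted p = 0.0131). Of 12 oxidase genes tested outside the members none was called, and their median log2 change was 0.26. In the 6 rats that cluster together Rac2 (1.03, adjusted p 0.00118) and Rac3 (1.32, adjusted p 0.00239) were called, and in rats 5, 8, 9 and 11 they were not (0.80 and 0.51, adjusted p 0.0522 and 0.496). Rac2 was also called without control rat 9 (1.06, adjusted p 0.00376) and Rac3 with limma-voom (1.12, adjusted p 0.00461). Rac3, Cybb, Ncf4 and LOC619574, the rat entry for Cybc1, had adjusted p values of 0.155, 0.44, 0.297 and 0.417. Nox3 and Nox4 had no reads.

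**Figure D3:**
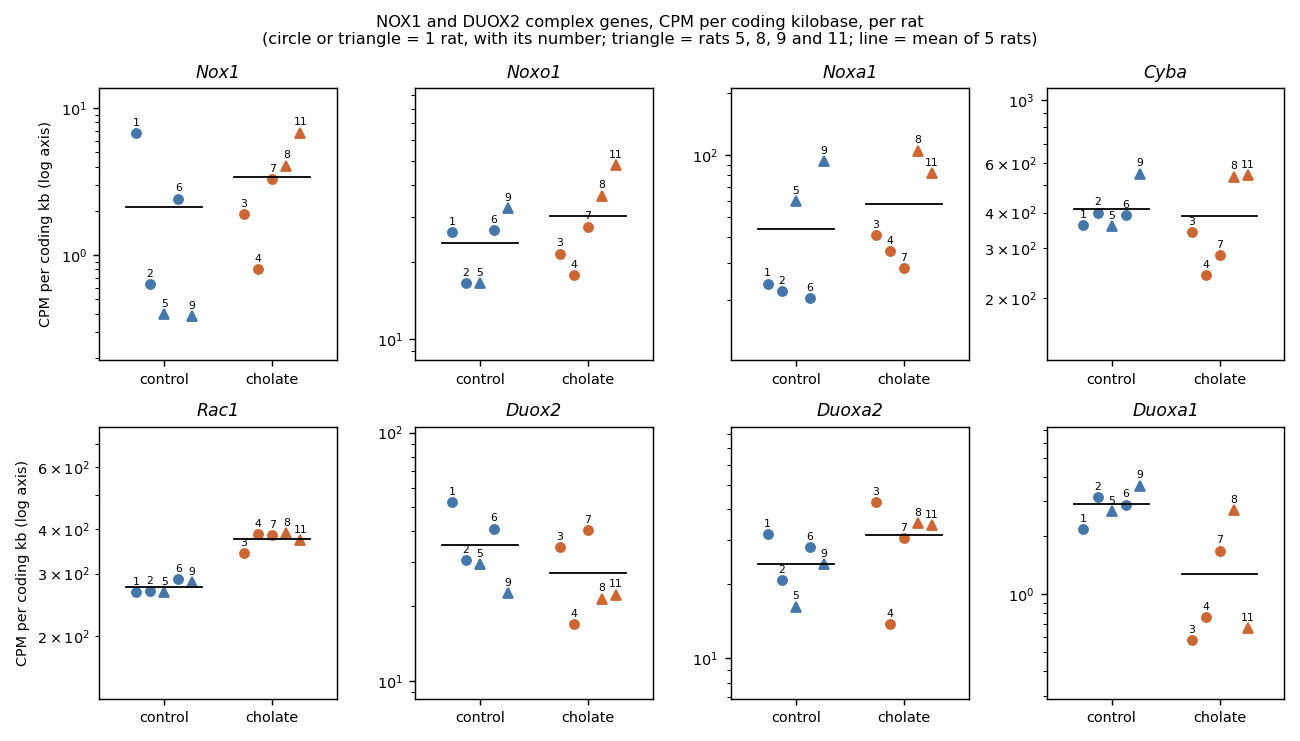
Each panel plots 1 gene of the NOX1 or DUOX2 complex in CPM per kilobase of coding sequence on a log axis, 1 point per rat, with the diet mean as a line and triangles for rats 5, 8, 9 and 11. Only Rac1 among these 8 genes separates the diets, Nox1 has the lowest control mean at 2.12 and Noxa1 is highest in rats 5, 8, 9 and 11.

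Duox2, the dual oxidase of the mucosal surface, lies on chromosome 3 at 114218187 to 114237808, minus strand, with 4821 coding bases. Duoxa2 lies head to head with it at 114236718 to 114240086, plus strand, with 963 coding bases. The genes overlap by 1091 bases, of which 55 are coding in both. The libraries kept strand, but the sources used here do not give whether counting used it, so reads in the overlap cannot be assigned with certainty.

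Duox2 was at 253.7, 147.6, 142.2, 197.7 and 108.5 CPM in control rats 1, 2, 5, 6 and 9. It was at 166.5, 81.6, 194.9, 103.4 and 107.2 CPM in cholate rats 3, 4, 7, 8 and 11. Cholate rats 4, 8 and 11 lay below the lowest control and cholate rats 3 and 7 within the control range. Its log2 change was -0.38 (95% interval -0.998 to 0.241, edgeR adjusted p = 0.42).

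Duoxa2 was at 30.3, 19.9, 15.6, 27 and 23 CPM in control rats 1, 2, 5, 6 and 9. It was at 41, 13.3, 29.3, 33.8 and 33 CPM in cholate rats 3, 4, 7, 8 and 11. Cholate rat 4 was the lowest of all 10 for both genes, and cholate rats 3, 8 and 11 lay above every control for Duoxa2. Its log2 change was 0.38 (95% interval -0.248 to 0.999, edgeR adjusted p = 0.427).

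The estimates for Duox2 and its maturation factor thus had opposite signs, and neither passed the test. With limma-voom the sign for Duoxa2 turned (-0.03). Per coding kilobase they stood at 35.2 and 24 CPM in controls and at 27.1 and 31.2 CPM on cholate. The ratio of Duox2 to Duoxa2 in CPM, chosen after the values were seen, was 7.4 ± 1.67 in controls and 4.64 ± 1.67 on cholate. Its exact two-sided permutation p, for the difference in mean log2 ratio, was 0.0476, and 0.0952 after adjustment over the 2 ratios tested. The smallest p that 5 against 5 allows is 0.00794. Duoxa1, the maturation factor of the sister enzyme DUOX1, was at 2.96 ± 0.556 CPM in controls and 1.3 ± 0.927 CPM on cholate (log2 change -1.19, edgeR adjusted p = 0.0861), and was called with limma-voom alone of the settings tried (-1.45, adjusted p 0.00333).

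The list of heme peroxidases and hydrogen peroxide removal also holds superoxide dismutases and water channels. Of its 19 tested genes 1 was called (Sod3), and the list's median log2 change was 0.37. Lpo encodes lactoperoxidase, which turns hydrogen peroxide and thiocyanate into an antibacterial oxidant. Lpo, looked up after its values were seen, was at 1485 ± 134.7 CPM in controls and 1336 ± 269.8 CPM on cholate (adjusted p = 0.555). Sod3, the extracellular superoxide dismutase, rose from 0.184 ± 0.0673 to 0.772 ± 0.287 CPM (log2 change 2.00, SE 0.41, edgeR adjusted p = 0.00984), but leaving out any 1 of the 10 rats ended the call (adjusted p 0.011 to 0.0298), and it was called in neither set of rats (0.0286 and 0.137). Aqp3 and Aqp8, water channels that also pass hydrogen peroxide, were looked up after their values were seen and stood at 206.4 ± 66 and 226 ± 78 CPM in controls. On cholate they stood at 514 ± 212 and 605.9 ± 232.9 CPM, which missed the threshold (edgeR adjusted p = 0.021 and 0.0232).

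**Figure D4:**
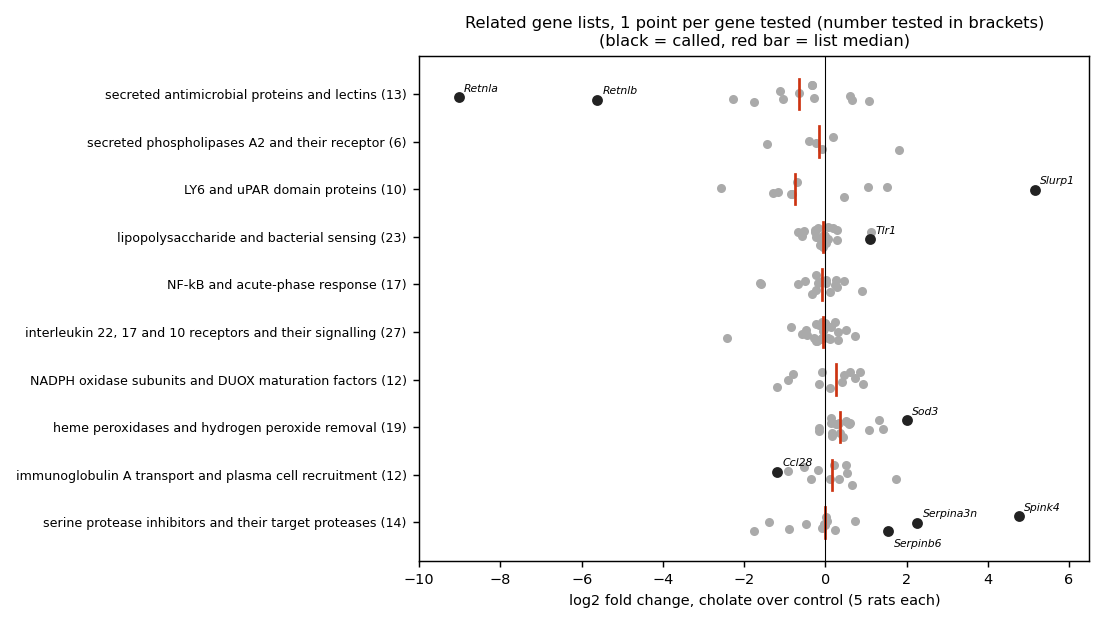
Each point is the log2 fold change of cholate over control of 1 tested gene in 1 of the 10 related lists, with called genes in black and named, and the list median as a red bar. Medians lie between -0.76 (LY6 and uPAR domain proteins) and 0.37 (heme peroxidases and hydrogen peroxide removal), and 9 genes were called.

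Genes with the most similar profile over the 10 rats were found by the root mean square difference of centred log2(CPM + 0.5) among 9274 genes. For Pla2g2a they were Arg2, an arginase (0.667), Fa2h, a fatty acid 2-hydroxylase (0.737), and Sptssb, a subunit of serine palmitoyltransferase (0.859). For Lbp they were Atg16l2 (0.507), Padi4 (0.535) and Col20a1 (0.548). For Duox2 they were Tmem268 (0.189), Ttyh3 (0.235) and Spg11 (0.248). For Nox1 the closest gene, Sc5d, differed by 0.938. Lypd8 had its closest gene at 0.0821 (Ap3s2). No member that could be listed was among the 3 closest genes of another. Duox2 and Duoxa2 were not among each other's, and Noxo1 was not among those of Nox1. These differences share depth and library set across rats and are a description only.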

How the data were processed

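Poly(A) RNA of 10 rats, 5 per diet, was sequenced as strand-specific libraries. Per the submitters' processing notes, the tools were bcl2fastq 1.8.4, BWA 0.7.12-r1039 and edgeR 3.16.2 and the build was rn6. For the counting program, its strand setting and its handling of reads with several matches, the sources used here give nothing. Raw counts per gene, as deposited, were used for all tests. Beside them stands the authors' normalized signal, which matched CPM on a TMM effective library size and was not used further. Other deposited columns hold gene lengths and coordinates, in bases; the effective length equals the union of coding exons for 100% of genes, so lengths here are coding lengths.

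In R 4.3.3, genes were filtered by filterByExpr, scaled by TMM and tested with edgeR 4.0.16 (robust quasi-likelihood F test, diet as the only term, Benjamini-Hochberg over 12385 genes; called at an adjusted p under 0.01 and a fold over 2). SE is the absolute log2 change over the square root of F, an approximation, and 95% intervals derive from it. The common biological coefficient of variation was 34.3%. In simulated data for this comparison with 12385 genes, 78 of 100 genes changed by 1.5 (log2) and 89 of 100 changed by 2.5 were called, with 1 false call. The changed genes all had a mean of at least 5 CPM, so these shares do not cover less abundant genes. Simulated counts were drawn independently for each rat, without the library sets seen in the data. A count of 0 allows up to 3 counts, 0.0663 to 0.209 CPM by library; this covers counting error only. Replicates are separate rats. Alternatives used limma 3.58.1 (voom), DESeq2 1.42.0, sva 3.50.0, other scalings, filters and thresholds, and leaving out each rat.

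Members and lists were chosen with earlier results of these data known. The text names all members and, from each related list, up to 4 called genes per direction or else the gene with the smallest adjusted p. It also names oxidase genes with a mean of at least 1 CPM and, for each member, up to 3 genes of similar profile. Further genes are marked as chosen after their values were seen, except cell type markers, genes without reads and the overlapping gene Cstf2. Promoters are from RefSeq (GRCr8), with 7 of 10 members matched.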

Additional observations from a re-analysis of the deposited data

Results flagged for a closer look

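In each diet, a rat was listed when its gap to the next value was over 0.71 of the group's whole range; 62 groups of 5 rats were tested, of which chance gives about 3.1, and 6 were found. Pla2g2a was at 166.4 CPM in control rat 6, against 24.2 to 40.7 CPM in the other controls. Lbp was at 27.2 CPM in cholate rat 11, against 13 to 15.8 CPM in the other cholate rats. Retnla was at 245.2 CPM in control rat 9, against 5.63 to 31.2 CPM in the other controls. Retnla was also at 0.835 CPM in cholate rat 11, against 0 to 0.0626 CPM in the other cholate rats. Retnlb was at 143 CPM in control rat 9, against 7.5 to 19.9 CPM in the other controls. Cyba was at 318.2 CPM in control rat 9, against 207.4 to 231.8 CPM in the other controls.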

How the results depend on the processing

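No paired analysis was possible because each rat received 1 diet and rat numbers do not repeat. With the 398 genes called in the main analysis, other planned settings gave 241 with a mean of at least 5 CPM, 788 with DESeq2, 1150 with limma-voom and quality weights, 50 with glmTreat against a fold of 2 and 795 at an adjusted p under 0.05. The 3 other scalings and no filter gave 377 to 474. Leaving out 1 rat gave 168 to 450 genes and 0 to 2 members called. Under glmTreat 0 members were called (adjusted p 0.0305 for Pla2g2a and 0.0716 for Lbp), while all other planned settings with 10 rats called both. Settings chosen after the data were seen gave 1003 genes and 1 member (Lbp) in rats 1, 2, 6, 3, 4 and 7, 112 genes and 3 members (with Nox1) in rats 5, 9, 8 and 11, and 893 genes with 1 surrogate variable. Of the genes called, 34.2% were higher on cholate, and 53.6% in rats 5, 9, 8 and 11. For the 2 called members, 12 settings other than leaving out a rat kept 21 of 24 calls, and leaving out a rat kept 11 of 20 (6 of 10 for Pla2g2a and 5 of 10 for Lbp). Of the 8 other members only Nox1 gained a call, in 1 setting. Estimates not called in the main analysis changed sign in 1 setting each for Noxo1 (-0.03 in rats 1, 2, 6, 3, 4 and 7), Pigr (0.0068 without cholate rat 8) and Duoxa2 (-0.03 with limma-voom). Their main estimates were 0.35, -0.11 and 0.38. The sign changed in 2 settings for Nox1 (main 0.65, range -0.69 to 3.75) and in 4 for Cyba (range -0.40 to 0.21). Among other named genes, settings other than leaving out a rat ended 18 calls and added 8, and leaving out a rat ended 40 and added 1. Lyz2 and Nox1 have no value under the filter at 5 CPM. Sod3, at 0.184 and 0.772 CPM, lies close to the limit that a count of 0 allows (0.0663 to 0.209 CPM).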
